A study of Mus musculus with 8 samples.

Results

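The 10 genes described here are regulators that sustain self-renewal in leukemia or in blood stem cells: Prdm16, Mecom, Mn1, Hlf, Hmga2, Msi2, Sox4, Zfp521, Mef2c and Nkx2-3. They were chosen by name and found by symbol, and all 10 were among the 24421 gene symbols listed for each library. Expression was measured by RNA-seq in mouse acute leukemia driven by MLL-AF9, a fusion oncogene, with 2 libraries from Ikzf2 KO cells (Ikzf2Δ/Δ mice) and 2 from Ikzf2 WT cells (floxed Ikzf2f/f mice). Ikzf2 is the gene of Helios, a DNA-binding protein related to Ikaros. All 4 libraries came from C57BL/6 mice, and all cells carried MLL-AF9, were frozen as leukemic marrow, thawed, and sorted for a high level of the receptor c-KIT. The labels give no age, no Cre driver, no deleted exon and no statement that replicates were separate mice, so a p-value here reflects library-to-library spread alone, which for WT may be technical.

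As background, MLL fusions keep immature myeloid cells dividing by holding open a program of stem cell genes, of which the HOXA and MEIS1 factors are the best known. The genes here act beside that program. Some are transcription factors of blood stem cells, such as Mecom, Prdm16 and Hlf. Others act on chromatin or on RNA, such as Hmga2 and Msi2, and Mef2c and Sox4 are factors whose high activity is linked to leukemia growth.

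Gene counts came to 16006081 and 18017545 in KO replicates 1 and 2 and to 19286090 and 18711837 in WT replicates 1 and 2. Levels are given as CPM, gene counts scaled to a common library total, after TMM scaling, and they are not adjusted for gene length, so they are compared between libraries and not between genes. Ikzf2 had 10.9 and 26.5 CPM in KO and 283 and 271 CPM in WT. The KO libraries differed in Xist, the X-inactivation RNA, with 833 and 0.35 CPM, against 0.60 and 0.48 CPM in WT. Ddx3y, a gene of the Y chromosome, had 0.062 and 70.1 CPM in KO and 109 and 102 CPM in WT. KO replicate 1 thus had the pattern of female cells and the other 3 libraries that of male cells, so the KO libraries were not repeats of the same cells. Kit ranged from 216 to 376 CPM, Hoxa9 from 280 to 334 CPM and the blood cell marker Ptprc from 288 to 408 CPM over the 4 libraries. Of the same 9 progenitor markers, Mpo, a granule enzyme gene of myeloid progenitors, had 7073 and 4311 CPM in KO and 286 and 343 CPM in WT, and Elane, another granule enzyme gene, had a log2 fold change of 3.02 (SE 0.48). DESeq2 called both as higher (adjusted p of 1.54e-30 and 8.05e-09, background 1.56%), so Mpo and Elane were not matched between the genotypes. Among all 9 progenitor markers, 4 had a log2 fold change above 0 and 5 below 0, so this list did not move as a whole either. Slamf1, Fgd5, Esam and Tek, surface or signalling markers of normal blood stem cells, stayed at or below 0.12 CPM in each library. Summed CPM of 11 mature neutrophil markers was 13050 and 18840 in KO and 862 and 4032 in WT. Summed CPM of 12 dendritic cell markers was 1733 and 545 in KO and 399 and 372 in WT. Of the sum in KO replicate 1, Cd74 gave 821, H2-Aa 397 and H2-Ab1 268 CPM. Among the 8 dendritic cell markers tested, 5 had a log2 fold change above 0 and 3 below 0, so the list did not move as a whole. In bulk RNA, fewer cells of a type and less RNA per cell cannot be told apart.

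Promoter sequence is shown for the genes that the comparison turns on: Prdm16, which stood higher in both KO libraries, its paralog Mecom, and Msi2 and Hmga2, which stood lower in both KO libraries. RefSeq gives windows on GRCm38.p6, the assembly that mm10 names, for 8 of the 10 genes. Each line holds the 250 bases before an annotated transcription start, 5′ to 3′ on the gene's strand. Capitals mark GGGAA on either strand (GGGAA or TTCCC), the core bound by zinc fingers of the Ikaros family.
Prdm16 (chr4:154636874-154637123, minus strand): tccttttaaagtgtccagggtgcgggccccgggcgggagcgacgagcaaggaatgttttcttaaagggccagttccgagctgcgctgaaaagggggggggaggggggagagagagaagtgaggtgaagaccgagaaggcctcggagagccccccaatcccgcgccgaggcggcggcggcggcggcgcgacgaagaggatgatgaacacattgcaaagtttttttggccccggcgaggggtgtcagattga
Mecom, upstream start (chr3:30509760-30510009, minus strand): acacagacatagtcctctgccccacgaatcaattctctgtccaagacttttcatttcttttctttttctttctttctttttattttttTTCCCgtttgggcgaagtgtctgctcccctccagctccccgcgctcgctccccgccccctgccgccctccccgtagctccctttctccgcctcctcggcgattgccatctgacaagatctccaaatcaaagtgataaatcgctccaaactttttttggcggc
Mecom, downstream start (chr3:30013205-30013454, minus strand): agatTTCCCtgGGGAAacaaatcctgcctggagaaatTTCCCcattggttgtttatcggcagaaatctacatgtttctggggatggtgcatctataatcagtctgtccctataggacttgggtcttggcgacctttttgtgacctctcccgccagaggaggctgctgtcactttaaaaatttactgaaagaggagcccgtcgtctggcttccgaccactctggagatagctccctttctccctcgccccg
Msi2 (chr11:88718278-88718527, minus strand): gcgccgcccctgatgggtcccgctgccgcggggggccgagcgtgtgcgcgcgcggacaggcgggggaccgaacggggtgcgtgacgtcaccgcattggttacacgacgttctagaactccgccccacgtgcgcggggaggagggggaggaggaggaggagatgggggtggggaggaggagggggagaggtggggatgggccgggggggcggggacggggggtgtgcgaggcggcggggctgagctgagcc
Hmga2 (chr10:120476470-120476719, minus strand): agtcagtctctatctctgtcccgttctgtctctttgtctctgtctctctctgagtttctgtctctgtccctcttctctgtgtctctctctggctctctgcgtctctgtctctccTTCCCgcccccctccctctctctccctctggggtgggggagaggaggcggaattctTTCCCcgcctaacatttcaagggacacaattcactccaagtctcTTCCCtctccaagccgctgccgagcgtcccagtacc
The core was found 3 times in the Hmga2 window, 3 times before the downstream Mecom start and 1 time before the upstream Mecom start, and 0 times in the Prdm16 and Msi2 windows. Over all 8 regulators with a window, it occurred in 7 of 13 windows, some of which overlap, and in 56.2% of the 32851 windows in the whole table. No match says only that these letters are not in the window.

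Prdm16 and Mecom are paralogs of the PR domain family, and their windows shared a run of 24 bases that lies just after the transcription start: GCGCATGTGCGAAGGTGTCCAAAC. All bases are in capitals because all of them are shared. It lies at chr4:154636841-154636864 in Prdm16 and at chr3:30509710-30509733, after the upstream start, in Mecom. In the RefSeq table it occurred in the windows of 2 genes, these paralogs, of 27025 genes. The longest run shared by any other pair of the regulators was 12 bases.

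**Figure D1:**
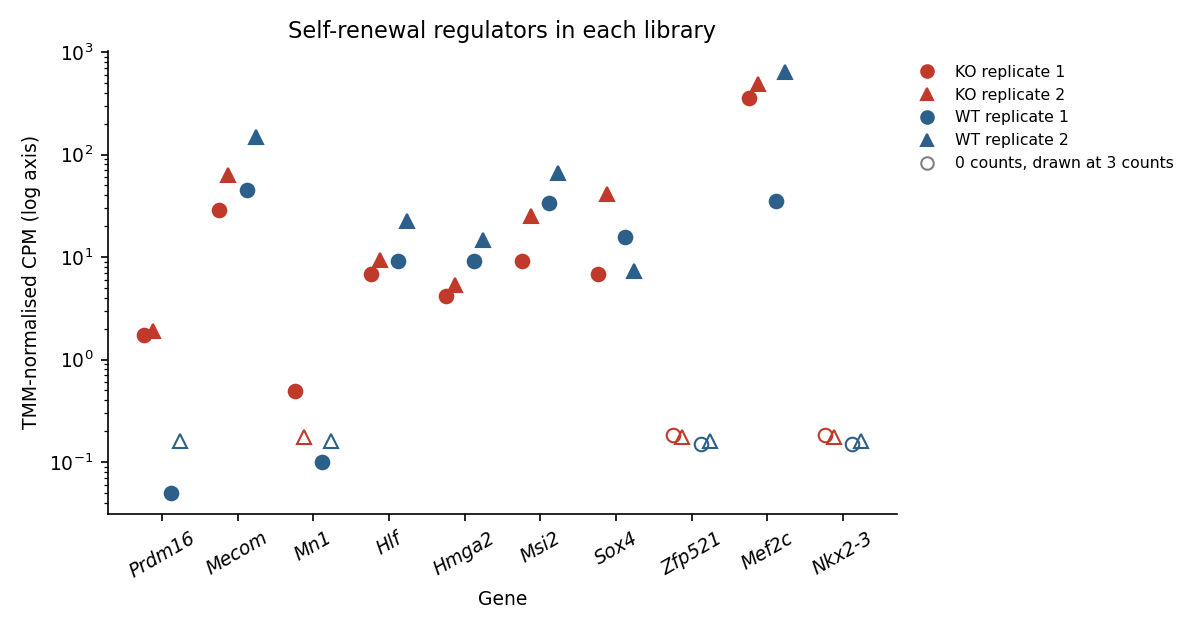
Level of each of the 10 regulators in TMM-normalised CPM on a log axis, 1 point per library, KO libraries (red) left of WT libraries (blue); open symbols stand for 0 counts and are drawn at 3 counts. Prdm16 sat above WT in both KO libraries and Hmga2 and Msi2 below WT in both, Mef2c was low in WT replicate 1 alone, and Zfp521 and Nkx2-3 had 0 counts throughout.

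Comparing KO with WT asks which self-renewal regulators follow the loss of Ikzf2, the question that the series title raises. A low-count filter kept 7 of the 10 genes for testing: Prdm16, Mecom, Hlf, Hmga2, Msi2, Sox4 and Mef2c. Of these, 0 passed edgeR's quasi-likelihood test at an adjusted p of 0.05, as was the case for 0% of all 12623 genes tested, and voom called 0. Neither called Ikzf2 itself (adjusted p of 0.332 by edgeR and 0.397 by voom). A gene that these tests did not call was thus not shown to be unchanged. At an unadjusted edgeR p under 0.05 there were 3 of the 7 regulators (background 7.67%), with Prdm16 higher (background 4.15%) and Hmga2 and Msi2 lower (background 3.52%). DESeq2 called 1, Prdm16, as higher, against 2.62% of genes called in either direction and 1.56% called as higher. Prdm16 stood higher without overlap between the groups (background 18.1%), and Hmga2 and Msi2 stood lower without overlap (background 19.1%), so 3 of 7 did not overlap, against 37.2% of all genes. Prdm16 passed the filter through the KO libraries alone and so had to differ, and it adds nothing to these counts. Among the other 6, 4 had a log2 fold change below 0, against 50.5% of all genes, with a median of -1.03, where all genes had -0.0043.

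**Figure D2:**
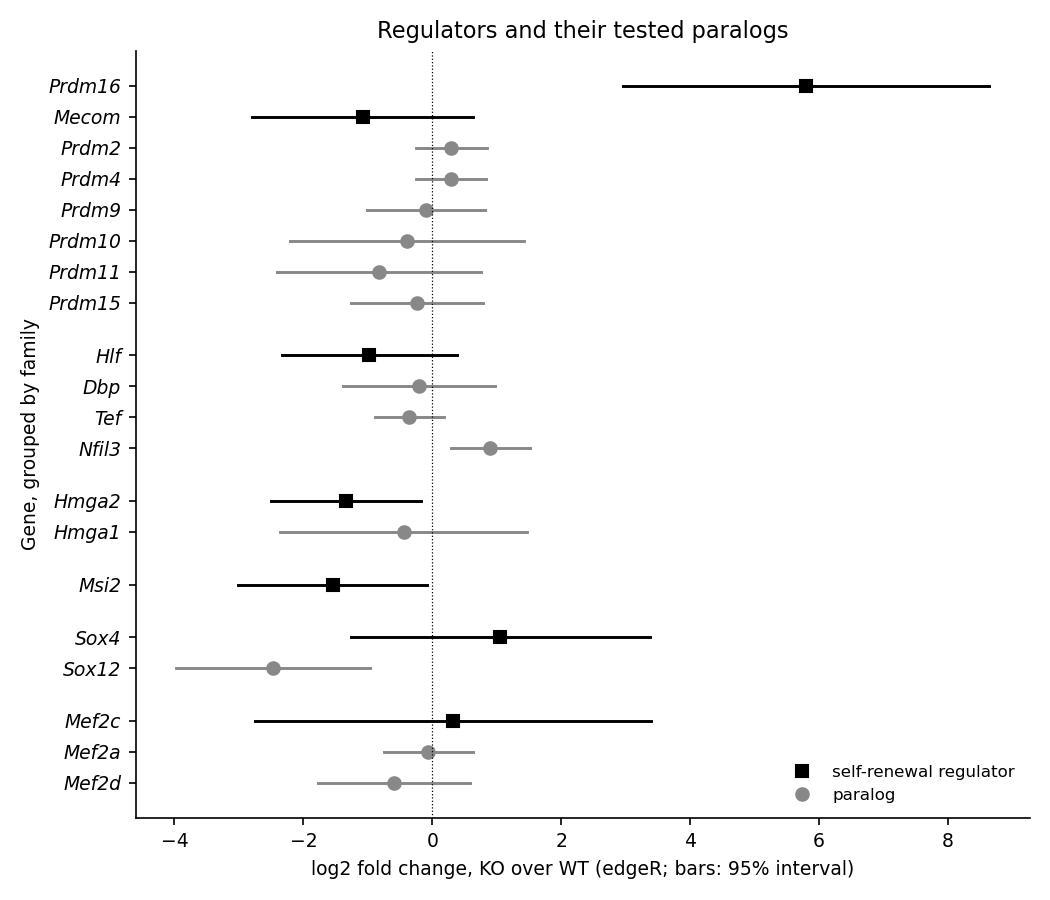
Log2 fold change of KO over WT by edgeR, with its 95% interval, for the 7 tested regulators (black squares) and their 13 tested paralogs (grey circles), grouped by family. Among the regulators, intervals of Prdm16, Hmga2 and Msi2 lay on one side of 0, and those of Mecom, Hlf, Sox4 and Mef2c spanned it. Prdm16 passed the filter through the KO libraries alone and so had to differ.

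Prdm16 (chromosome 4, 154316122 to 154637360) encodes a PR domain zinc finger protein that maintains blood stem cells in mice. It had 28 and 32 counts in KO replicates 1 and 2, or 1.73 and 1.88 CPM, against 1 and 0 counts in WT replicates 1 and 2, or 0.050 and 0 CPM. The gene was thus present at a low level in both KO libraries and at the edge of detection in both WT libraries, without overlap. The ratio of summed counts was 70.2, with a 95% interval from counting error alone of 12.1 to 2818. The fit gave a log2 fold change of 5.80 (SE 1.13, 2 libraries a group), which depends on the prior count because WT held 1 count. It did not pass edgeR's quasi-likelihood test over all genes (unadjusted p = 0.00294, adjusted p = 0.444), and it passed DESeq2 (adjusted p = 0.0402). DESeq2 no longer called it without WT replicate 1 (adjusted p = 0.186) or WT replicate 2 (adjusted p = 0.285), and gave no adjusted p without either KO library. Gene-level counts do not tell the full-length transcript from the short one that lacks the PR domain.

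The span of Prdm16 holds the long noncoding RNA gene 5930403L14Rik (chromosome 4, 154630691 to 154636367), named here after its values were seen. It had 41 and 16 counts in KO and 0 and 0 counts in WT. Both KO libraries thus held reads of it and both WT libraries held none. Against the mean floor of 3 counts per WT library the level was at least 16.4-fold higher in KO replicate 1 and at least 6.08-fold higher in KO replicate 2. Like Prdm16 it passed the filter through the KO libraries alone and so had to differ, and its tests lend no support to those of Prdm16. DESeq2 called it as higher (adjusted p = 0.0152) and edgeR's quasi-likelihood test did not (adjusted p = 0.444). DESeq2 lost it without KO replicate 2 (adjusted p = 0.142) or either WT library (adjusted p of 0.225 without replicate 1 and 0.113 without replicate 2), and gave no adjusted p without KO replicate 1. The strand setting of the counting is not given in the sources used here, so reads of Prdm16 and of this overlapping gene cannot be told apart with certainty.

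For 20 further tested genes whose spans lie within 1 Mb of Prdm16, edgeR gave log2 fold changes from -1.68 for Prkcz, an atypical protein kinase C, to 0.64 for Ski, with a median of 0.047. Among them 1 had an unadjusted edgeR p under 0.05 (background 7.67%) and DESeq2 called 0 (background 2.62%). Another 14 genes of this region fell under the edgeR filter, and DESeq2 called 1 of them, Cfap74, as lower (background 1.07%). Cfap74 had 0 and 1 counts in KO and 4 and 145 counts in WT (DESeq2 log2 fold change -7.03, adjusted p = 0.0411). Its counts came mostly from WT replicate 2. Arhgef16 had 0 and 0 counts in KO and 32 and 3 counts in WT and was not called (DESeq2 adjusted p = 0.297). Both were named after their values were seen. Ski, a corepressor of TGF-beta signalling that also binds Prdm16, had 149 and 129 CPM in KO and 99.9 and 77.9 CPM in WT (edgeR adjusted p = 0.592).

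**Figure D3:**
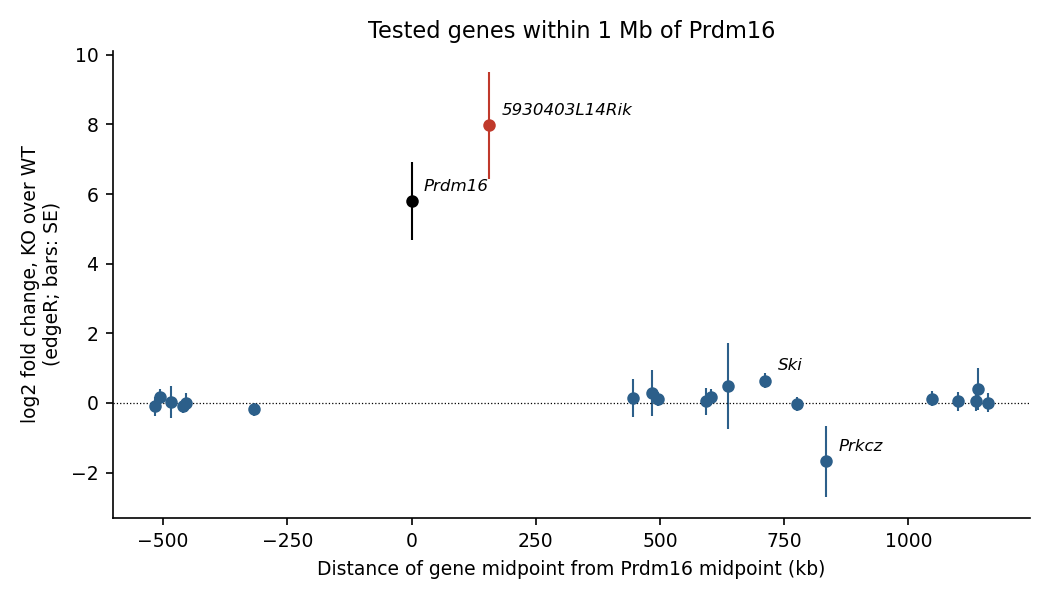
Log2 fold change of KO over WT by edgeR, with its SE, against the distance in kb from the midpoint of Prdm16 for the 21 tested genes with a span within 1 Mb and Prdm16 itself. Prdm16 (5.80) and the overlapping 5930403L14Rik lay far above 0, and the other 20 tested genes lay between -1.68 and 0.64.

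By Euclidean distance of centred log2 CPM over the 4 libraries, the tested genes most like Prdm16 were Fgf10, Klrb1b and Slc9a7, at distances of 0.54, 0.56 and 0.66. Fgf10, a fibroblast growth factor gene, had 16 and 24 counts in KO and 0 and 0 in WT. Klrb1b, a lectin-like receptor gene of natural killer cells, had 155 and 105 counts in KO and 12 and 8 in WT. Slc9a7, a sodium-proton exchanger gene, had 21 and 16 counts in KO and 0 and 0 in WT. With 4 libraries this is a description of likeness and no more.

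Mecom (chromosome 3, 29951296 to 30509759) encodes EVI1, the paralog of PRDM16 that drives stem cell self-renewal and is overexpressed in some acute myeloid leukemias. It had 28.6 and 62.9 CPM in KO replicates 1 and 2, against 45.4 and 148 CPM in WT replicates 1 and 2. WT replicate 2 was the highest and KO replicate 1 the lowest, and the groups overlapped because KO replicate 2 stood above WT replicate 1. EdgeR put the change at -1.08 in log2 (SE 0.67, 95% interval -2.80 to 0.64, edgeR adjusted p = 0.822), so the direction opposite to that of Prdm16 was within the error. It was -0.66 between the replicate 1 libraries and -1.23 between the replicate 2 libraries on the log2 CPM scale. Without WT replicate 2 it was 0.028, so the value below 0 rested on that library. Gene counts add up transcripts from the upstream MDS1 start and from the downstream EVI1 start.

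Among the other PR domain genes, 6 were tested and 0 passed edgeR or DESeq2. Prdm2, a tumor suppressor in mice also called RIZ, had 102 and 129 CPM in KO and 87.4 and 101 CPM in WT (log2 fold change 0.29, SE 0.22). Prdm15 had 19.7 and 35.3 CPM in KO and 24.5 and 40.4 CPM in WT (log2 fold change -0.23, SE 0.41). The fold changes of the 6 thus lay closer to 0 than that of Prdm16, and their intervals all spanned 0.

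Hlf (chromosome 11, 90336535 to 90390917) encodes a PAR bZIP transcription factor that keeps blood stem cells quiescent in mice and is fused to TCF3 in a form of human leukemia. It had 6.87 and 9.33 CPM in KO and 9.15 and 22.7 CPM in WT. WT replicate 2 stood highest, and KO replicate 2 and WT replicate 1 were nearly equal, so the groups overlapped. For Hlf the fold change in log2 was -0.97 (SE 0.54, 95% interval -2.33 to 0.38, edgeR adjusted p = 0.784). Without WT replicate 2 it was -0.16, and without WT replicate 1 it was -1.48.

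The related bZIP gene Nfil3, a repressor that binds the same DNA sites as PAR bZIP factors, had 48.7 and 50.6 CPM in KO and 30.1 and 23.1 CPM in WT. Both KO libraries stood above both WT libraries (log2 fold change 0.90, SE 0.24), and it passed neither edgeR (adjusted p = 0.456) nor DESeq2 (adjusted p = 0.106). For Tef and Dbp, the other PAR bZIP genes, the values were -0.35 (SE 0.21) and -0.20 (SE 0.47).

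Hmga2 (chromosome 10, 120361268 to 120476469) encodes an AT-hook protein that shapes chromatin and supports self-renewal of fetal stem cells in mice. It had 67 and 90 counts in KO replicates 1 and 2 and 183 and 278 counts in WT replicates 1 and 2. The levels were 4.14 and 5.28 CPM in KO and 9.15 and 14.8 CPM in WT. Both KO libraries stood below both WT libraries. The log2 fold change was -1.34 (SE 0.46, 95% interval -2.50 to -0.18), a 2.53-fold lower level, with an unadjusted p of 0.0308 and an adjusted p of 0.594 by edgeR's quasi-likelihood test and an adjusted p of 0.196 by DESeq2. The difference was -1.12 between the replicate 1 libraries and -1.46 between the replicate 2 libraries on the log2 CPM scale. The pseudogene listed as Hmga2-ps1 had 885 and 164 counts in KO and 742 and 397 counts in WT. Its counts exceeded those of Hmga2 in each library, so any reads that the pair shares would make the Hmga2 counts uncertain, and such sharing was not tested. The noncoding RNA gene 9230105E05Rik, within the span of Hmga2, had 187 and 19 counts in KO and 48 and 57 counts in WT. The strand setting is not given, so its reads and those of Hmga2 cannot be told apart with certainty.

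Hmga2 is held down by the microRNA let-7, which the LIN28 proteins block. Lin28a had 57.0 and 24.1 CPM in KO and 19.4 and 14.2 CPM in WT (log2 fold change 1.27, SE 0.47, edgeR adjusted p = 0.608, DESeq2 adjusted p = 0.231). Lin28b had 1.30 and 0.29 CPM in KO and 0.35 and 1.65 CPM in WT, with overlap. Igf2bp2, an RNA-binding protein gene that HMGA2 activates in mouse muscle, had 2.35 and 5.87 CPM in KO and 13.6 and 6.21 CPM in WT (log2 fold change -1.27, SE 0.67, edgeR adjusted p = 0.770). These genes were named after their values were seen, and their link to the level of Hmga2 was not tested.

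Msi2 (chromosome 11, 88339382 to 88718306) encodes Musashi 2, an RNA-binding protein that sustains blood stem cells and myeloid leukemia. It had 9.16 and 24.9 CPM in KO replicates 1 and 2 and 33.9 and 65.4 CPM in WT replicates 1 and 2. Both KO libraries stood below both WT libraries, and replicate 2 stood above replicate 1 in either genotype. The log2 fold change was -1.54 (SE 0.58, 95% interval -3.01 to -0.076), a 2.91-fold lower level, with an unadjusted p of 0.0425 and an adjusted p of 0.623 by edgeR's quasi-likelihood test and an adjusted p of 0.197 by DESeq2. DESeq2 called it without KO replicate 2 (log2 fold change -2.44, adjusted p = 0.00262), and edgeR's value came to -0.98 when WT replicate 2 was left out and to -0.99 when KO replicate 1 was. Syncrip, an RNA-binding partner of Musashi 2 in leukemia, stood at 0.0050 (SE 0.21) in log2 fold change. Numb, a Notch antagonist whose mRNA Musashi proteins bind, stood at 0.028 (SE 0.32).

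Sox4 (chromosome 13, 28948919 to 28953699) encodes an HMG box transcription factor that cooperates in leukemia and is repressed by C/EBPalpha. It had 6.80 and 41.2 CPM in KO and 15.8 and 7.32 CPM in WT. KO replicate 2 stood far above the rest and KO replicate 1 was the lowest library of all, so the groups overlapped. The log2 fold change was 1.05 (SE 0.90, 95% interval -1.27 to 3.37, edgeR adjusted p = 0.889), and it was -0.77 without KO replicate 2. The KO libraries differed by 2.58 on the log2 CPM scale, and 2.04% of all tested genes differed as much between them. Cebpa, the gene of C/EBPalpha, had 85.3 and 64.1 CPM in KO and 86.6 and 62.8 CPM in WT.

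Sox12, of the same SOXC group as Sox4, had 1.18 and 2.88 CPM in KO and 11.7 and 10.8 CPM in WT. Both KO libraries stood well below both WT libraries (log2 fold change -2.47, SE 0.60). DESeq2 called it as lower (adjusted p = 0.00713, background 1.07%), and edgeR's quasi-likelihood test did not (adjusted p = 0.444). The DESeq2 call held without KO replicate 2 (adjusted p = 0.00238) and was lost without KO replicate 1 (0.193), WT replicate 1 (0.361) or WT replicate 2 (0.166), while edgeR's log2 fold change ran from -3.25 to -1.96 over these fits. The SOXC gene Sox11 had 0 counts in each library.

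Mef2c (chromosome 13, 83504017 to 83667079) encodes a MADS box transcription factor that MLL-AF9 leukemia stem cells express in mice. It had 357 and 486 CPM in KO replicates 1 and 2 and 34.9 and 641 CPM in WT replicates 1 and 2. WT replicate 1 alone was low, and WT replicate 2 was the highest of the 4. Mef2c thus differed 18.4-fold between the WT libraries, a gap that 0.658% of all tested genes reached there, and 1.36-fold between the KO libraries. The log2 fold change was 0.32 (SE 1.19, 95% interval -2.75 to 3.39, edgeR adjusted p = 0.987). It was -0.60 without WT replicate 1 (adjusted p = 1) and 3.61 without WT replicate 2 (adjusted p = 0.0022), a fit in which the single remaining WT library takes its spread from the KO pair. For its paralogs Mef2a and Mef2d the values were -0.059 (SE 0.27) and -0.60 (SE 0.46).

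Kinases and histone deacetylases set the activity of MEF2 factors. Sik1, a salt-inducible kinase that phosphorylates class IIa histone deacetylases, had 71.4 and 85.5 CPM in KO and 42.1 and 41.0 CPM in WT. Both KO libraries stood above both WT libraries (log2 fold change 0.92, SE 0.21), and DESeq2 called it as higher (adjusted p = 0.0413) where edgeR did not (adjusted p = 0.444). With 1 library left out, DESeq2 called it in 0 of 4 fits (adjusted p from 0.157 to 0.887) with edgeR's log2 fold changes from 0.78 to 1.04. Hdac9, a class IIa deacetylase that represses MEF2 factors, had 13.4 and 7.51 CPM in KO and 1.70 and 3.77 CPM in WT (log2 fold change 1.93, SE 0.62, edgeR adjusted p = 0.545), a gene named after its values were seen.

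Mn1, Zfp521 and Nkx2-3 did not reach the filter. Mn1 (chromosome 5, 111417300 to 111457030), a transcriptional coregulator that transforms myeloid cells when overexpressed in mice, had 8 and 0 counts in KO and 2 and 0 counts in WT. Its reads came from replicate 1 of each genotype, with a ratio of summed counts of 4.68 and a 95% interval from counting error alone of 0.93 to 45.2. Zfp521, a zinc finger gene of immature blood cells, and Nkx2-3, a homeobox gene, had 0 counts in each of the 4 libraries. At these depths a count of 3, the limit that a count of 0 allows, equals 0.150 to 0.186 CPM. Their levels were therefore not detectable, and no difference between KO and WT can be stated. Of the NK homeobox paralogs Nkx2-1, Nkx2-2, Nkx2-5, Nkx2-6 and Nkx2-9, each also had 0 counts throughout.

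**Figure D4:**
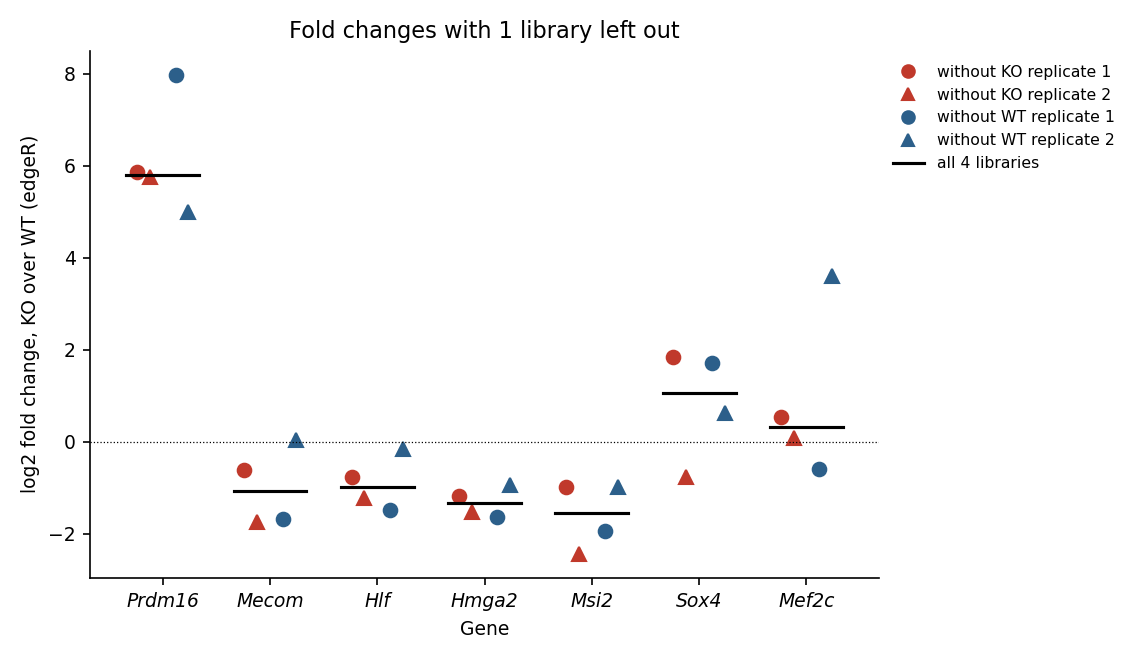
Log2 fold change of KO over WT by edgeR for the 7 tested regulators with all 4 libraries (black bars) and with 1 library left out (symbols). Hlf, Hmga2 and Msi2 stayed below 0 in each fit, while Mecom, Sox4 and Mef2c changed sign in 1 fit each. For Hmga2 and Msi2 this followed from groups that did not overlap, so it adds nothing to that result. Prdm16 stayed above 0, which was given in advance because it passed the filter through the KO libraries alone.

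Mecom, Hlf, Hmga2 and Msi2 were each higher in replicate 2 than in replicate 1 in either genotype. WT replicate 2 held the highest level of each. This library also had the highest summed CPM of 10 megakaryocyte markers (3 at 0 throughout), at 28.3 and 54.3 in KO and 34.4 and 133 in WT, of which Itga2b, an integrin also made by progenitors, gave 112. Of the other markers, Pf4, Ppbp, Gp6 and Treml1 stayed at or below 0.12 CPM in each library, while Vwf reached 17.9, Gp1bb 6.05, Gp9 5.69 and Gp1ba 4.21 CPM. These last 4 stood higher in both KO libraries without overlap (background 18.1%), and Itga2b stood lower without overlap (background 19.1%). The gap was small for Gp1ba, with 3.29 CPM in KO replicate 2 and 3.18 CPM in WT replicate 2. It was also small for Vwf, with 12.4 CPM in KO replicate 1 and 11.5 CPM in WT replicate 2. EdgeR called 0 of these last 4 (background 0%), as did DESeq2 (background 2.62%). The summed CPM of 12 endothelial markers (3 at 0 throughout) was 39.3 and 41.0 in KO and 31.0 and 101 in WT, with Cdh5, Kdr, Emcn, Tek, Sox17 and Cldn5 at or below 0.11 CPM. Eng, an endothelial receptor also made by blood progenitors, gave 76.4 CPM of the sum in WT replicate 2. Plvap had 0.99 and 0.65 CPM in KO and 6.95 and 7.91 CPM in WT, and DESeq2 called it as lower (adjusted p = 0.000193). The part of these markers in the values of the regulators was not tested.

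Between genotypes, 5 tested regulators (Prdm16, Mecom, Hlf, Hmga2 and Msi2) had the same sign in the replicate 1 pair and the replicate 2 pair. For Prdm16 this was given in advance, because it passed the filter through the KO libraries alone. For Hmga2 and Msi2 it followed from groups that did not overlap, whichever libraries are paired. The share of all genes with the same sign in both pairs was not computed, so the count is a description only. Sox4 and Mef2c differed in sign between the pairs. The difference of Sox4 was -1.20 between the replicate 1 libraries and 2.48 between the replicate 2 libraries on the log2 CPM scale. That of Mef2c was 3.35 and -0.40 in the same order. Of the 11 tested neutrophil markers, 8 did not overlap between the genotypes, with KO higher (background 18.1%), and DESeq2 called 4 as higher (background 1.56%). Their part in the values of the regulators was not tested.

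The wider self-renewal context was described by lists, which were chosen with earlier results of these data known. Of 32 other stem cell genes, 17 were tested, 7 above and 10 below 0, with a median log2 fold change of -0.15, and edgeR called 0, with 5 at an unadjusted p under 0.05 (background 7.67%). DESeq2 called 3 (background 2.62%), with Cdkn1c as higher and Gata2 and Adgrg1 as lower. Adgrg1, an adhesion receptor that marks leukemia stem cells and that EVI1 activates in human cells, had 46.4 and 100 CPM in KO and 266 and 293 CPM in WT. Both KO libraries stood below both WT libraries (log2 fold change -1.93, SE 0.40, DESeq2 adjusted p = 0.0012, edgeR adjusted p = 0.444), and DESeq2 still called it when any 1 of the 4 libraries was dropped. Cdkn1c, the cell cycle inhibitor p57 that keeps stem cells quiescent, had 94.3 and 68.8 CPM in KO and 36.0 and 36.7 CPM in WT. It stood higher in both KO libraries (log2 fold change 1.17, SE 0.24, DESeq2 adjusted p = 0.0106), and DESeq2 called it without KO replicate 2 (adjusted p = 0.00906) and not without KO replicate 1 (0.347), WT replicate 1 (0.528) or WT replicate 2 (0.314). Gata2, a stem cell factor that EVI1 activates in mice, had 14.04 and 49.3 CPM in KO and 74.4 and 234 CPM in WT. Its groups did not overlap, with WT replicate 2 highest as for Mecom, but its DESeq2 call (adjusted p = 0.0459) was lost without WT replicate 2 (adjusted p = 0.787) and without KO replicate 1 (0.375), and its log2 fold change of -2.28 was -1.22 and -1.64 in these fits.

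**Figure D5:**
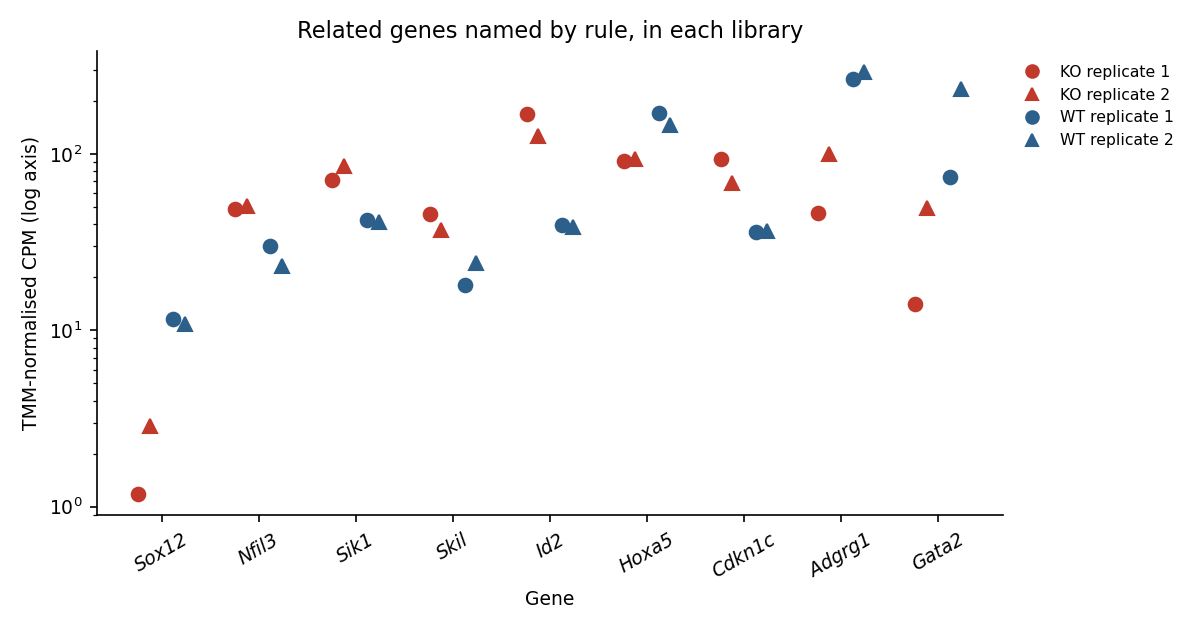
Level in TMM-normalised CPM on a log axis of 9 genes named by rule from the lists of paralogs, partners, the HOXA-MEIS1 program and stem cell genes, 1 point per library, KO libraries (red) left of WT libraries (blue). Sox12, Hoxa5, Adgrg1 and Gata2 sat lower in both KO libraries and Nfil3, Sik1, Skil, Id2 and Cdkn1c higher in both.

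Of 31 partners and upstream regulators of the 10 genes, 29 were tested, 16 above and 13 below 0, with a median of 0.013. EdgeR called 0, with 7 at an unadjusted p under 0.05, all 7 higher (background 4.15% higher, 7.67% in either direction), and DESeq2 called 1, Sik1 (background 2.62%). Skil, which encodes the SKI-like corepressor SnoN, had 45.5 and 37.3 CPM in KO and 18.2 and 24.1 CPM in WT (log2 fold change 0.97, SE 0.27, edgeR adjusted p = 0.472, DESeq2 adjusted p = 0.115). Ctbp1, the corepressor through which EVI1 and PRDM16 act, had 245 and 318 CPM in KO and 289 and 268 CPM in WT, with overlap. Of 30 paralogs 13 were tested, 3 above and 10 below 0, with a median of -0.23. EdgeR called 0 of them, with 2 at an unadjusted p under 0.05 (background 7.67%), and DESeq2 called 1, Sox12 (background 2.62%).

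The HOXA-MEIS1 program had 21 tested genes, 2 above and 19 below 0 (background 50.5% below 0), with a median log2 fold change of -0.33. The list was chosen with earlier results of these data known, so this count is a description and no test of the program. EdgeR called 0, with 3 at an unadjusted p under 0.05 (background 7.67%), and DESeq2 called 1 as higher, Id2 (background 1.56%). Id2, which blocks DNA binding by bHLH proteins, stood at 169 and 127 CPM in KO and 39.7 and 38.6 CPM in WT. Hoxa5, a homeobox factor of the cluster that MLL fusions activate, had 90.9 and 93.9 CPM in KO and 172 and 146 CPM in WT (log2 fold change -0.78, SE 0.20, edgeR adjusted p = 0.444). Both KO libraries thus stood below both WT libraries.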

How the data were processed

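RNA-seq was available for 2 KO and 2 WT libraries, and 4 chromatin accessibility samples were not analysed here. Values are raw counts per gene symbol as the authors deposited them, 1 table per library. The submitters' processing notes name HTSeq, STAR 2.3.0, Picard, MACS2 and Bowtie2 2.2.5, and the build mm10. Roles of these tools, the annotation and strand handling: not given in the sources used here. The 5 closing rows that name no gene held 72.4% and 69.3% of counts in KO and 72.2% and 71.7% in WT and were left out. Those libraries differed within a group beyond counting noise (chi-square per degree of freedom 91.1 in KO and 68.1 in WT), so each counted as its own sample.

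In R 4.3.3, genes were kept by filterByExpr of edgeR 4.0.16 (12623 genes), scaled with TMM, and KO was compared with WT by the robust quasi-likelihood test without covariates, with Benjamini-Hochberg adjustment over all tested genes at 0.05. The SE was the log2 fold change divided by the square root of F. Log2 CPM used a prior count of 2. DESeq2 1.42.0 (Wald test) and voom in limma 3.58.1 were alternatives, beside other scalings, filters, a replicate block and leaving out each library. The scripts were tested on simulated counts. Intervals from counts cover counting error only. Named genes were the 10 regulators, Ikzf2, tested paralogs, and from each list the DESeq2 calls and the 2 genes of smallest edgeR p; other genes (such as Ski, Prkcz, Syncrip, Numb, Cebpa, Ctbp1, Cfap74 and Arhgef16) were chosen after their values were seen or serve as marker checks. The regulators and the lists were chosen with earlier results of these data known. Coordinates and promoter windows come from RefSeq on GRCm38.p6.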

Additional observations from a re-analysis of the deposited data

How the results depend on the processing

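With 2 libraries per group, edgeR's quasi-likelihood test called 0 of the 7 tested regulators under each alternative scaling, filter and dispersion setting, and so did voom; DESeq2 called 1, Prdm16. Over all genes edgeR called 0, and it called 4 with no low-count filter. DESeq2 called 352. With 1 library left out, edgeR called 0 to 156 of all genes (50 without WT replicate 1, 156 without WT replicate 2) and 0 to 1 of the regulators, the 1 being Mef2c without WT replicate 2. The log2 fold change of Ikzf2 was -3.88 by DESeq2, past its threshold. By edgeR it was -3.89, not past the threshold, and edgeR's value ran from -4.67 to -3.39 with a library left out. With a library left out, log2 fold changes ran from -0.77 (without KO replicate 2) to 1.83 for Sox4, from -0.60 (without WT replicate 1) to 3.61 for Mef2c and from -1.75 to 0.028 (without WT replicate 2) for Mecom, so these 3 turned direction in 1 fit each; fewer samples enter those fits. Of 140 values recomputed under alternatives, 125 kept their direction and side of the threshold. The replicate numbers are not stated to mark shared animals or batches, and deviations of same-numbered libraries correlated at 0.19. With the replicate block edgeR called 11 of all genes and 0 of the regulators, with 1209 genes at an unadjusted p under 0.05, against 968 without it. Depth limits Mn1, Zfp521, Nkx2-3 and the WT level of Prdm16, where counts lay at or near 0.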

Other observations

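Further genes of the lists, named here after their values were seen, also differed between libraries of 1 genotype. Tcf4, an E protein gene, had 84.7 and 127 CPM in KO and 391.7 and 27.7 CPM in WT. WT replicate 1, the library with little Mef2c, thus held the most Tcf4 of the 4 libraries, and the groups overlapped. Angpt1, which encodes an angiopoietin made by stem cells, had 7.67 and 57.8 CPM in KO and 112 and 338 CPM in WT, the same order of the 4 libraries as for Gata2, without overlap (log2 fold change -2.78, SE 1.06, edgeR adjusted p = 0.646).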
